A study of Homo sapiens with 4 samples.

Results

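The genes of the mitochondrial ribosomal proteins were examined in breast cancer cells after depletion of SNRNP40, a spliceosome component that belongs to the U5 particle. The genes were chosen by symbol alone, as those written MRPL or MRPS with a number and at most 1 closing letter (A, B or C). This gave 76 of the 23217 gene symbols in the table, 47 of the large subunit (MRPL) and 29 of the small subunit (MRPS), with 127 of its 44578 transcripts. The rule uses no expression value, although it was chosen with earlier results of these data known.

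Mitochondria carry their own ribosome, which translates the few messenger RNAs made from mitochondrial DNA, all of them for proteins of the respiratory chain and the ATP synthase. Its ribosomal RNAs come from mitochondrial DNA, while its proteins are encoded in the nucleus, made in the cytosol and imported. The large subunit forms peptide bonds and holds the exit tunnel, and the small subunit binds the messenger RNA and decodes it. Some of its proteins have counterparts in bacterial ribosomes, and others occur only in mitochondria.

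LV-M100 is a subclone of MDA-MB-231, an established breast cancer cell line, so all libraries share 1 clone. The control group consisted of 1 library with the NC1 negative control siRNA and 1 with the BLOCK-iT Fluorescent Oligo. The depleted group consisted of 1 library with siSNRNP40 #1 and 1 with siSNRNP40 #2, and all siRNAs were delivered by lipid transfection (Lipofectamine). Total RNA was taken 48 h later, depleted of ribosomal RNA and sequenced. Expression was deposited as FPKM, sequenced fragments corrected for the length of the transcript and for library size, which allows levels of different genes to be compared per length. Each condition has a single FPKM for a transcript, made from its 2 libraries together, so no value below has a replicate error, no difference was tested and depth is unknown. In bulk RNA, fewer cells that express a gene and less RNA per cell cannot be told apart.

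For each gene, FPKM was summed over its listed transcripts, and the change is given as the log2 fold change of SNRNP40 siRNA over control siRNA. SNRNP40 was at 40.4 FPKM with control siRNA and at 6.12 FPKM with SNRNP40 siRNA, so that it decreased by 84.9%. Of the markers checked, VIM, CD44, EGFR, AXL and CAV1 were present, from 18.3 to 750.1 FPKM in controls. ESR1, PGR and CDH1 were under 0.1 FPKM in both conditions, whereas EPCAM, also counted on as low or absent, was at 10.6 and 10.0. Of 5 markers of other cells, PTPRC was listed at 0 in both conditions, CD3E and COL1A1 were under 0.2, PECAM1 was at 0.92 and 1.2 and CD68 at 40.9 and 44.4. Their part in the values below was not tested.

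Some of these genes start close to a neighbour that is read in the opposite direction, and such shared start regions are shown first. In GENCODE release 44 on GRCh37, 16 of the 76 genes (21.1%) start within 1000 bases of an oppositely oriented coding gene, compared with 1163 of 10077 coding genes measured (11.5%). The stretches between the starts are given for MRPL18, the gene with the largest negative change, and for 3 pairs in which both genes are mitochondrial. Each is read 5′ to 3′ along the strand of the first gene, and capitals mark CGGAAG, the core recognised by ETS family factors, or its reverse complement.
MRPL18 with TCP1, chr6:160210736-160210843, plus strand: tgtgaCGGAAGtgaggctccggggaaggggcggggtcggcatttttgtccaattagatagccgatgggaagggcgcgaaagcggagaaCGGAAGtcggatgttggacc
MRPL46 with MRPS11, chr15:89010622-89010683, minus strand: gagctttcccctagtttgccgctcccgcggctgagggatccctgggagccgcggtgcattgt
MRPL36 with NDUFS6, chr5:1801481-1801520, minus strand: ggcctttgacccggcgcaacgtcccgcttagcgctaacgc
MRPL47 with NDUFB5, chr3:179322438-179322477, minus strand: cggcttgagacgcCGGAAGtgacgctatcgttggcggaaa

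The 4 stretches are short, from 40 to 108 bases, and 59.3 to 67.5% of their bases are G or C. Letters for ETS factors occur at 2 places between MRPL18 and TCP1, at 1 place between MRPL47 and NDUFB5 and not in the other 2 stretches. Another pair of mitochondrial genes, MRPS12 with SARS2, is not printed. Its stretch is longer, at 180 bases with 60.0% G or C, and holds no letters for ETS factors. In RefSeq promoters on GRCh38.p14, from 250 bases before to 50 after a start, 69 of the 76 genes were found with 85 starts. CGGAAG on either strand occurred in 51.8% of these promoters and in 19.5% of all 35116. AAGATGG, the letters recognised by YY1 together with a start codon, occurred in 31.8% against 5.84%. GCGCANGC, part of the NRF1 site, occurred in 30.6% against 12%. TATAAA occurred in 3.53% against 11.5%, CCAAT in 32.9% against 34.6% and the GC box GGGCGG in 60.0% against 45.0%. In promoters of coding genes alone, the shares were 23.7% for CGGAAG, 6.04% for AAGATGG, 15.1% for GCGCANGC, 9.47% for TATAAA, 34.7% for CCAAT and 56.3% for GGGCGG. A match is a match of letters and not a measured binding site. CGGAAG was found for 38 of the 69 genes. Among the 69 it was found for 5 of 10 genes with a change above 0.25 and for 5 of 7 with a change below -0.25. Both directions were thus represented, and with so few genes a link with direction was not tested.

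All 76 genes were expressed at a mean of at least 1 FPKM over the conditions, and 71 of them at 10 FPKM or more. Their median level was 37.8 FPKM with control siRNA and 38.1 FPKM with SNRNP40 siRNA, against 10.7 and 10.6 FPKM for all 12334 genes with a mean of at least 1. The highest and the lowest gene differed by 48.2 times although their proteins occur in 1 complex. Ordered by the mean of the conditions, MRPL51 was highest in the large subunit, at 244.2 FPKM with control and 256.3 FPKM with SNRNP40 siRNA. It was followed by MRPL24 at 165 and 179 FPKM, MRPL21 at 108 and 147, MRPL33 at 121.4 and 121.3 and MRPL20 at 97.8 and 121. Lowest by that mean were MRPL38 at 4.96 and 5.43 FPKM, MRPL4 at 7.66 and 7.84 and MRPL22 at 8.79 and 9.27, although with SNRNP40 siRNA alone MRPL10 lay below MRPL22 at 8.11 FPKM. In the small subunit the same order was led by MRPS10 at 165 and 138 FPKM, MRPS22 at 133 and 109.8, MRPS15 at 90.6 and 92.0, MRPS17 at 71.9 and 85.0 and MRPS18C at 69.2 and 87.4. MRPS12, the counterpart of the bacterial decoding-centre protein S12, was lowest at 10.3 and 9.14 FPKM, with MRPS2 at 12.2 and 12.7 and MRPS25 at 11.6 and 13.5 just above it. MRPL51 and MRPL38 were therefore the ends of the order in both conditions. Without a spread between libraries, it cannot be said which neighbours in this order differ.

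**Figure D1:**
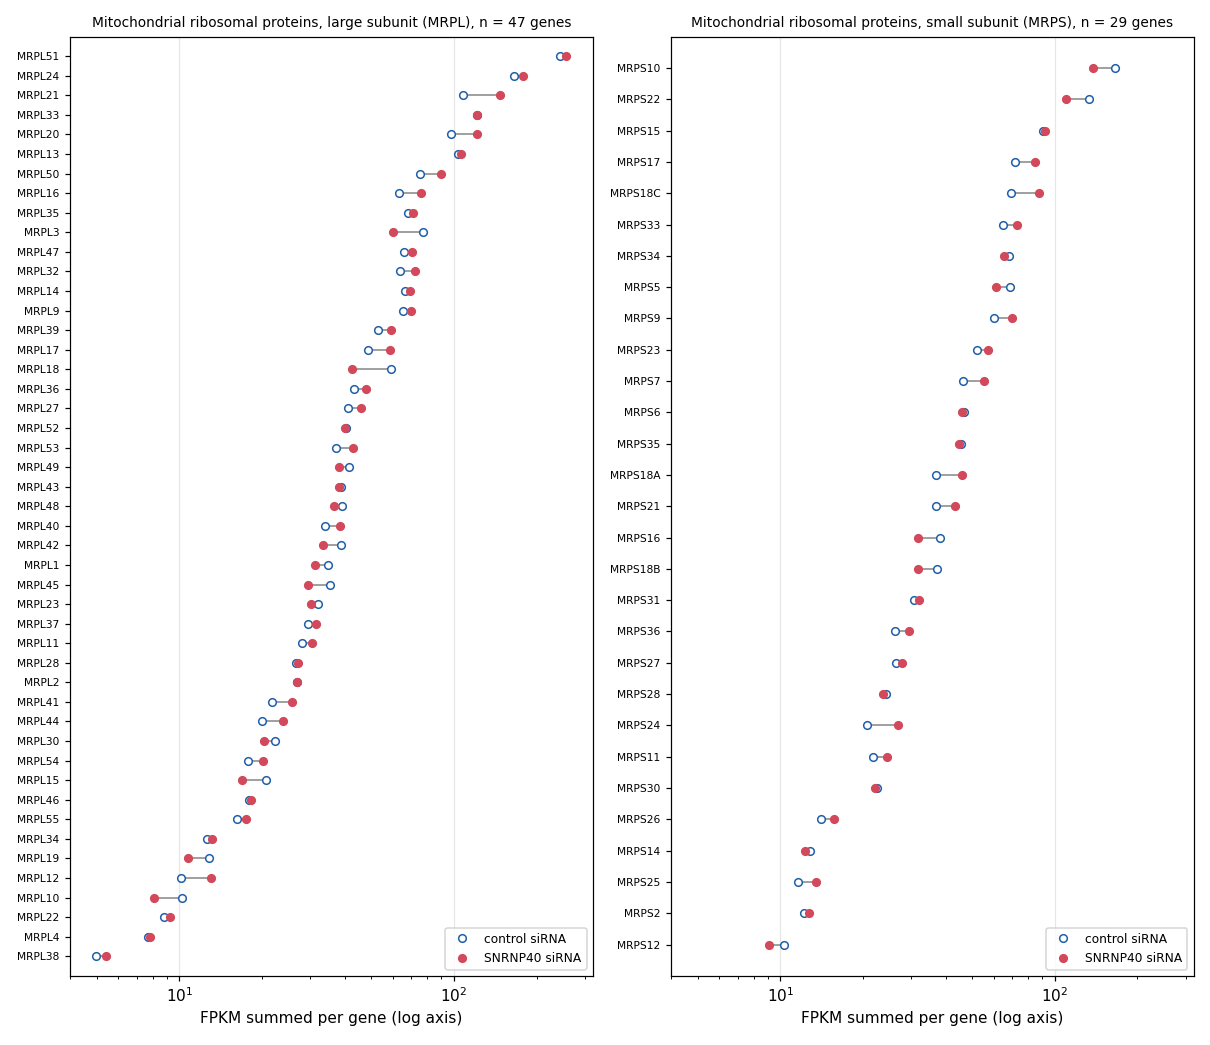
Summed FPKM (log axis) of each of the 47 large-subunit and 29 small-subunit genes, ordered by mean level, with open circles for control siRNA and filled circles for SNRNP40 siRNA. Each circle is 1 pooled value without an error. Levels run from MRPL38 near 5 FPKM to MRPL51 near 250.2 FPKM, and the conditions lie close together for most genes.

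Summed over transcripts, changes after SNRNP40 depletion were small in every one of these genes. The median log2 fold change was 0.07, with quartiles at -0.06 and 0.18. The extremes were MRPL18 at -0.48 and MRPL21 at 0.44. No gene passed an absolute change of 0.5 or 1, while 10.3% and 1.47% of all genes with a mean of at least 1 FPKM did. Among the 6394 genes with a mean of at least 10 FPKM, the share past 0.5 was 4.96%. With only the transcript of highest mean per gene, 4 of the 76 genes passed 0.5, MRPL4 (0.72), MRPL42 (-0.57), MRPL24 (0.56) and MRPL55 (0.52), beside 15.7% of all genes.

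More of the genes lay above 0 than below it, 49 against 27 (64.5% above 0). Over all genes with a mean of at least 1 FPKM, 50.5% lay above 0 and the median was 0.0034, and over those with at least 10 FPKM the values were 47.2% and -0.01. Past 0.25 there were 11 genes (14.5%), against 17.2% of all genes with a mean of at least 1 and 10.6% of those with at least 10. Below -0.25 there were 9 genes (11.8%), against 16.5% and 14.4%. Counting only the 71 genes with at least 10 FPKM, 15.5% were past 0.25 and 11.3% below -0.25. These shares are near the background and are no result about the mitochondrial ribosome. The other 56 genes (73.7%) lay within 0.25 of 0. Summed over the 76 genes, expression was 3681 FPKM with control siRNA and 3834 FPKM with SNRNP40 siRNA, which is 4.15% higher.

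**Figure D2:**
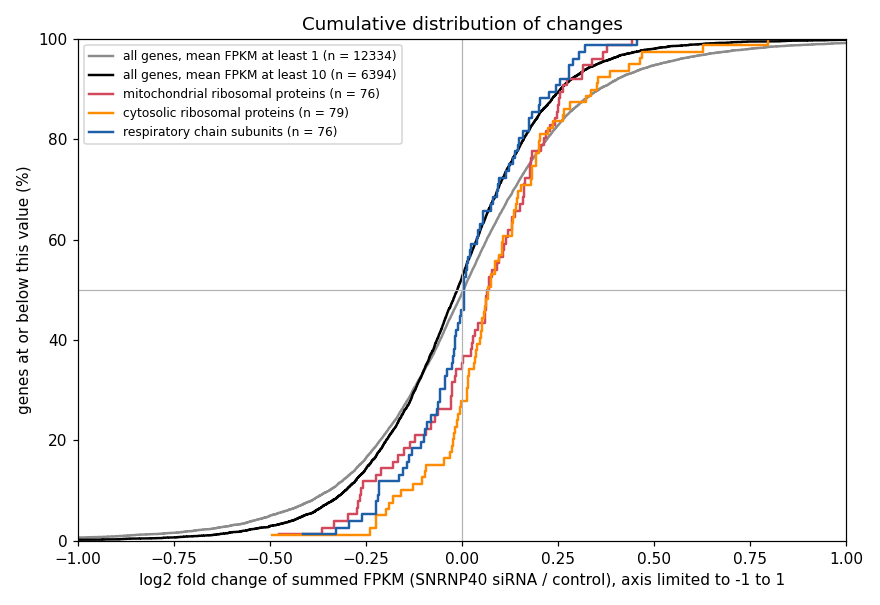
Cumulative share of genes (%) at or below each log2 fold change of summed FPKM, for all genes at a mean of at least 1 or at least 10 FPKM and for 3 gene groups, with the axis limited to -1 to 1. The curve of the mitochondrial ribosomal proteins crosses 50% at 0.07, close to that of the cytosolic ribosomal proteins, and it ends at 0.44.

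The medians of the subunits were close. The median log2 fold change was 0.07 for the 47 large-subunit genes, with 32 above 0 and 15 below, and 0.06 for the 29 small-subunit genes, with 17 above 0 and 12 below. The large-subunit median was higher by 0.0072, which is small beside the SD over genes of 0.20 and 0.19. Past 0.25 there were 8 large-subunit (17.0%) and 3 small-subunit genes (10.3%), beside 17.2% of all genes, and below -0.25 there were 6 (12.8%) and 3 (10.3%), beside 16.5%. Summed FPKM was 5.69% higher over the large subunit (2315 to 2447) and 1.54% higher over the small subunit (1365 to 1386). MRPS18A and MRPS30, named as small-subunit genes, encode proteins that were placed in the large subunit in structures. With both counted there, the medians stayed 0.07 and 0.06, 9 and 2 genes were past 0.25, and the sums were 5.91% and 0.95% higher.

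Among the 47 genes named MRPL, MRPL21 had the largest positive change. MRPL21 (ENSG00000197345, chr11:68658744-68671303), the counterpart of bacterial L21, was at 108 FPKM with control and 147 FPKM with SNRNP40 siRNA (log2 0.44). MRPL12, a stalk protein that is also known to bind the mitochondrial RNA polymerase, was at 10.1 and 13.1 FPKM (0.37). MRPL20 was at 97.8 and 121 FPKM (0.31), MRPL16 at 63.0 and 76.1 (0.27) and MRPL17 at 48.5 and 58.3 (0.26). Just past 0.25 were also MRPL50 (75.2 and 89.7 FPKM), MRPL41 (21.7 and 25.8) and MRPL44 (20.0 and 23.8), which have no bacterial counterpart in the ribosome.

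The largest negative change among the genes named MRPL was that of MRPL18. MRPL18 (ENSG00000112110, chr6:160210844-160219468), whose bacterial counterpart holds the small 5S ribosomal RNA, was at 58.9 FPKM with control and 42.4 with SNRNP40 siRNA (log2 -0.48). MRPL3, which lies near the site of peptide bond formation, was at 77.4 and 60.0 FPKM (-0.37), MRPL10 at 10.2 and 8.11 (-0.33) and MRPL15 at 20.7 and 16.8 (-0.30). MRPL45, a mitochondria-specific protein at the tunnel exit that anchors the ribosome to the inner membrane, was at 35.3 and 29.3 FPKM (-0.27). MRPL19 followed at 12.8 and 10.7 FPKM (-0.26).

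In the small subunit, MRPS24 (ENSG00000062582, chr7:43906157-43909492), the counterpart of bacterial S3 at the entry of the messenger RNA, had the largest positive change, from 20.7 to 26.8 FPKM (log2 0.38). It was followed by MRPS18C (69.2 to 87.4 FPKM, 0.34), MRPS18A (36.99 to 46.0, 0.32), MRPS7 (46.4 to 55.0, just under 0.25) and MRPS17 (71.9 to 85.0, 0.24). Negative changes were largest in MRPS22, a mitochondria-specific protein, from 133 to 109.8 FPKM (-0.27), and in MRPS16 (38.2 to 31.8, -0.27) and MRPS10 (165 to 138, -0.26). MRPS18B was at 37.2 and 31.9 FPKM (-0.22) and MRPS12 at 10.3 and 9.14 (-0.18). The 2 genes of highest level in the small subunit, MRPS10 and MRPS22, were thus both lower with SNRNP40 siRNA.

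**Figure D3:**
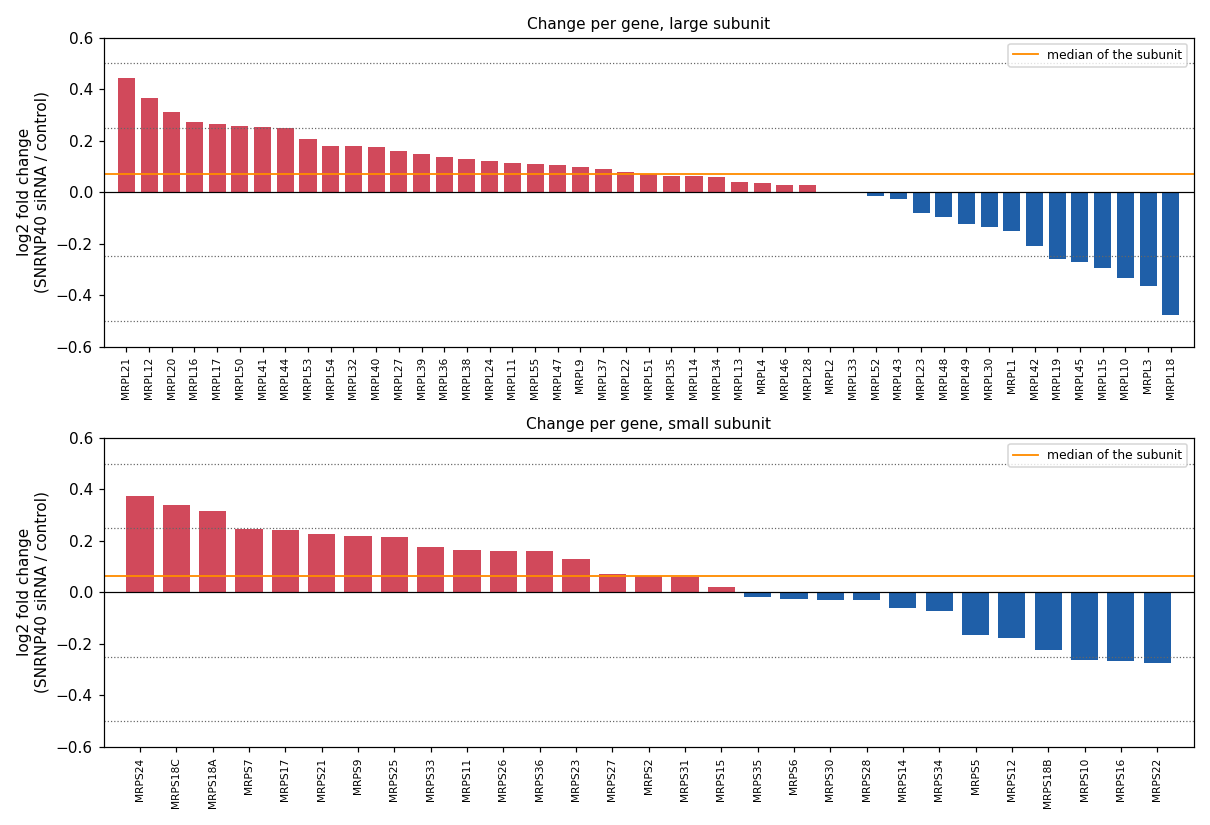
Log2 fold change (SNRNP40 siRNA over control siRNA) of summed FPKM for each gene, ordered within the large and the small subunit, with an orange line at the subunit median and dotted lines at 0.25 and 0.5 in either direction. Bars have no error because each condition is 1 pooled value. All bars stay within the lines at 0.5, from MRPL18 at -0.48 to MRPL21 at 0.44.

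Each group of proteins that sit together in the ribosome held values of both signs. In the stalk, which recruits translation factors, MRPL12 was at 0.37, MRPL53 at 0.20 and MRPL11 at 0.11, while MRPL10, which carries MRPL12 on the ribosome, was at -0.33. In the central protuberance, MRPL18 was at -0.48 while MRPL40 (0.18), MRPL38 (0.13), MRPL55 (0.11), MRPL46 (0.03) and MRPL48 (-0.09) lay closer to 0. The summed FPKM of the protuberance decreased by 7.33%, from 171 to 158. MRPL18 alone went from 58.9 to 42.4 FPKM, a larger fall than that of the sum. Around the exit tunnel, MRPL17 was at 0.26, MRPL24 at 0.12, MRPL47 at 0.11, MRPL22 at 0.08, MRPL23 at -0.08 and MRPL45 at -0.27. Among 5 conserved proteins of the small-subunit head, MRPS24 (0.38), MRPS7 (0.25) and MRPS9 (0.22) lay above 0, and MRPS14 (-0.06) and MRPS10 (-0.26) below it.

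Grouped by origin, the genes had similar medians. The 46 genes with a bacterial counterpart had a median log2 fold change of 0.06, with 7 genes past 0.25 and 7 below -0.25, beside the 17.2% and 16.5% of all genes. The 30 genes classed as mitochondria-specific had a median of 0.08, with 4 past 0.25 and 2 below -0.25. This class includes MRPS18A and MRPS18B, extra copies related to bacterial S18, whereas MRPS18C was classed as its counterpart.

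MRPS18A, MRPS18B and MRPS18C are all related to the bacterial protein S18 and occupy different places in the ribosome. MRPS18C and MRPS18A were higher with SNRNP40 siRNA by 0.34 and 0.32 on the log2 scale, and MRPS18B was lower at -0.22. MRPS18B is listed 7 times, of which 6 entries lie on alternative contigs of chromosome 6 and are at 0 in both conditions. MRPS30 was at 22.5 and 22.1 FPKM (-0.03). MRPS36, which is now known as a subunit of the oxoglutarate dehydrogenase complex rather than of the ribosome, was at 26.3 and 29.4 FPKM (0.16).

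A further 7 proteins of this ribosome carry other gene symbols. None of the 7 passed 0.25 in either direction, beside 17.2% of all genes above 0.25 and 16.5% below -0.25. The median log2 fold change of the 7 was 0.10. AURKAIP1 was at 52.6 and 61.4 FPKM (0.22), GADD45GIP1 at 64.6 and 72.2 (0.16), MRP63 at 14.4 and 15.6 (0.12) and CHCHD1 at 30.1 and 32.3 (0.10). ICT1, a hydrolase that frees the nascent chain, was at 47.7 FPKM in both conditions. DAP3, which binds GTP, was at 49.6 and 48.1 FPKM (-0.05) and PTCD3 at 37.9 and 37.4 (-0.02). With them included, 83 genes had a median of 0.07.

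Genes that act with the mitochondrial ribosome also showed small changes, as did the other large machines. The median was 0.13 for 24 assembly factors, of which 4 were past 0.25 (16.7%) and 1 below -0.25 (4.17%). Here and in the lists that follow, the shares of all genes with a mean of at least 1 FPKM were 17.2% and 16.5%. MALSU1, which keeps the subunits apart during assembly, was at 32.2 and 42.0 FPKM (0.38) and YBEY at 7.31 and 5.87 (-0.32). For 13 translation factors the median was 0.01, with TSFM, an elongation factor, at 10.6 and 13.0 FPKM (0.29) and GFM2, which recycles ribosomes, at 33.2 and 26.0 (-0.35). There, 3 were past 0.25 (23.1%) and 2 below -0.25 (15.4%). For 17 mitochondrial tRNA synthetases the median was -0.03, with none past 0.25 and 2 below -0.25 (11.8%). EARS2 had the largest positive change, at 5.89 and 6.998 FPKM (just under 0.25). For 11 genes of mitochondrial DNA expression the median was 0.03, with HSD17B10 at 42.3 and 51.8 FPKM (0.29), the only 1 past 0.25, and MTPAP at 11.9 and 10.9 (-0.12).

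The 79 cytosolic ribosomal protein genes had a median of 0.07, the same as the mitochondrial ones. Their summed FPKM was 9.14% higher with SNRNP40 siRNA, against 4.15% for the mitochondrial ones. Past 0.25 there were 13 (16.5%), beside 17.2% of all genes with a mean of at least 1 and 10.6% of those with at least 10. Below -0.25 there was 1 (1.27%), beside 16.5% and 14.4%. Of the 79 genes, 57 (72.2%) lay above 0, and RPL4 had the largest negative change (646 to 458 FPKM, -0.50). The 76 nuclear genes of the respiratory chain and ATP synthase had a median of 0.0051, with 7 past 0.25 (9.21%) and 4 below -0.25 (5.26%). Their summed FPKM was nevertheless 10.6% higher, from 10716 to 11850, and ATP5E alone went from 2517 to 3449 FPKM (0.45). NDUFA8 was at 54.5 and 40.9 FPKM (-0.41).

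Values of single transcripts moved more than the sums. For 52 of the 76 genes 1 transcript is listed, and for 24 several are. Among the 24, the share of the gene's FPKM taken by 1 transcript moved by more than 10 percentage points in 10 genes and by less than 5 in 11. The 11 include MRPL39 and MRPS18B, whose other entries were at 0 in both conditions, so that their share could not move. Share changes were not counted over all genes with several transcripts, so these counts have no background and are no result about these genes. Of 101 member transcripts with a mean of at least 1 FPKM and a value in both conditions, 7 (6.93%) passed an absolute log2 fold change of 1, against 1760 of 16691 transcripts in the table (10.5%). Some genes had transcripts that differed in sign, and in others, such as MRPL21 (0.38 and 0.77) and MRPS21 (0.23 and 0.21), both lay above 0.

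MRPS18A moved most. Its minor transcript went from 3.01 to 15.2 FPKM (log2 2.34), or from 8.14% to 33.0% of the gene, while the leading transcript went from 33.98 to 30.8 FPKM. The higher sum of MRPS18A thus lay entirely in the minor transcript. In MRPL4, at low level, 1 transcript went from 2.78 to 4.58 FPKM (36.3% to 58.4% of the gene) and another from 3.22 to 1.49 FPKM (42.0% to 19.0%), while the sum stayed at 7.66 and 7.84 FPKM. In MRPL24 the leading transcript changed, as 1 went from 70.1 to 103 FPKM (42.5% to 57.6%) and the other from 94.9 to 76.0 FPKM. In MRPL42 the leading transcript went from 28.5 to 19.1 FPKM (73.6% to 57.3%) and the second from 9.45 to 13.6. In MRPL43 the leading transcript went from 32.7 to 28.0 FPKM (84.2% to 73.4%) and the second from 2.81 to 8.09 (7.25% to 21.2%). The leading transcript differed between the conditions in 3 genes, MRPL4, MRPL24 and MRPL52, and how often it did over all genes was not counted. Taking only the transcript of highest mean per gene moved the change by more than 0.1 in 13 of the 76 genes and turned its sign in 4, MRPS18A (-0.14), MRPS12 (0.07), MRPL30 (0.18) and MRPS33 (-0.08).

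**Figure D4:**
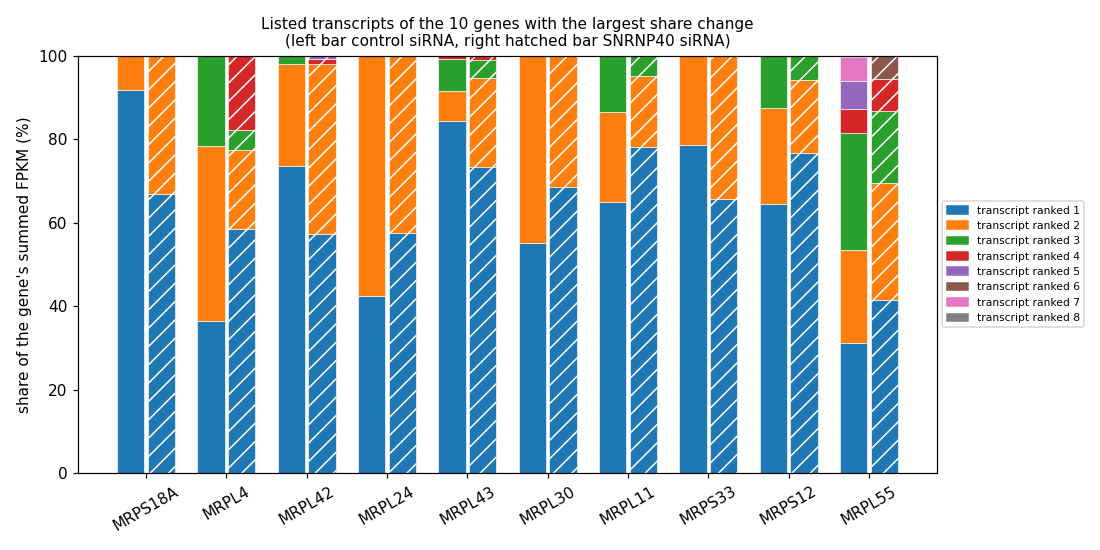
Share of each gene's summed FPKM (%) held by its listed transcripts, ranked by mean level, for the 10 genes with the largest change in share, with a plain bar for control siRNA and a hatched bar for SNRNP40 siRNA. In MRPS18A the second transcript goes from 8.14% to 33.0%, and in MRPL24 the transcript ranked 1 goes from 42.5% to 57.6%.

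These genes are short in exons. Their GENCODE canonical transcripts have 2 to 12 exons with a median of 5, where the 10324 measured genes found there have a median of 9. The 20 genes with 2 to 3 exons had a median log2 fold change of 0.10 (0.04 for all genes of that class), and the 25 with 4 to 5 exons had 0.11 (0.03). The 18 genes with 6 to 7 exons had 0.07 (0.02), and the 13 with 8 to 12 exons had -0.02 (-0.01). Across the 76 genes, Spearman's rho of exon number with the change was -0.26 and that of transcript length with the change -0.25. Across all measured genes the values were -0.10 and -0.13. The points share the same pooled libraries and exon number goes with length (rho 0.31), so these are descriptions. MRPL21, with 7 exons, and MRPL18, with 4, go against the order.

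**Figure D5:**
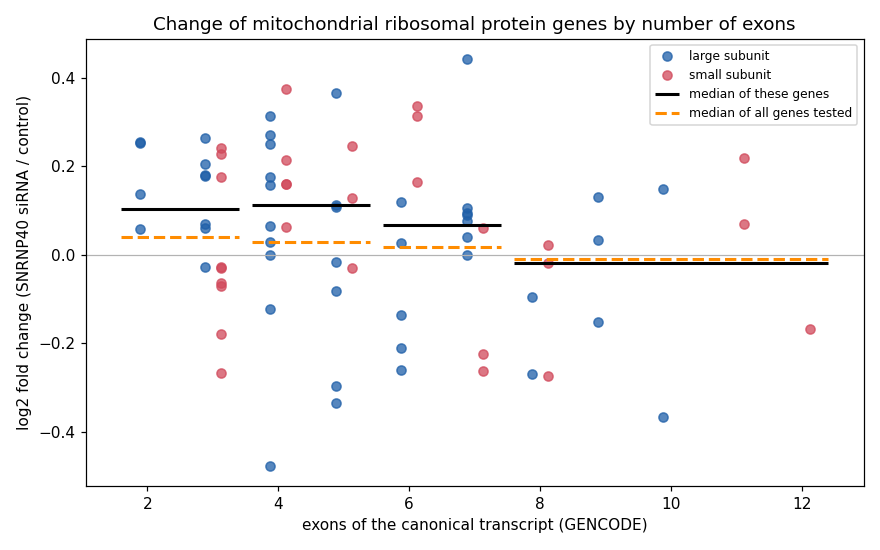
Log2 fold change of summed FPKM against the number of exons of the canonical transcript for the 76 genes, with large-subunit genes drawn slightly left and small-subunit genes slightly right of their exon number. Black lines are medians of these genes and dashed lines medians of all measured genes in 4 classes of exon number. The medians are 0.10, 0.11, 0.07 and -0.02 from few to many exons.

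Genes that share a start region had changes of like sign in some pairs and of opposite sign in others. MRPL21 and IGHMBP2, a neighbouring helicase gene, were both higher, at 0.44 and 0.48, with IGHMBP2 at 3.29 and 4.61 FPKM. MRPL18 was at -0.48, and TCP1, a chaperonin subunit that starts 109 bases away, at -0.11 (155 and 143 FPKM). MRPL46 (0.03) and MRPS11 (0.16) join both subunits at 1 start region and were at 17.9 and 18.3 and at 21.8 and 24.4 FPKM. Opposite signs were found for MRPL36 (0.14) with NDUFS6 (-0.02), for MRPL47 (0.11) with NDUFB5 (-0.09) and for MRPS12 (-0.18) with SARS2 (0.03). The 16 genes with such a neighbour had a median of 0.12, and the other 60 had 0.06.

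Counting can mix some of these genes with neighbours and copies. The span of 37 genes overlaps another coding gene, and these had a median log2 fold change of 0.06, against 0.11 for the other 39. MRPS24 overlaps the read-through gene URGCP-MRPS24, which was at 3.33 and 5.64 FPKM (0.76), so its value is uncertain. MRPS7 overlaps MIF4GD, at 4.92 and 7.44 FPKM (0.60), MRPS18B overlaps PPP1R10, at 8.67 and 6.82 (-0.35), and MRPS22 overlaps COPB2, at 131 and 125 (-0.07). MRPS18A overlaps RSPH9, which was under 0.3 FPKM in both conditions. Pseudogenes named after them are annotated for 35 of the 76 genes, which had a median of 0.06 against 0.07 for the 41 without. The means were further apart, at 0.02 and 0.07, and summed FPKM was 1.71% and 7.23% higher with SNRNP40 siRNA. Whether copies have a part in this was not tested. MRPL42P5, a copy of MRPL42, was listed at 1.99 and 0.96 FPKM and MRPL45P2, a copy of MRPL45, at 2.50 and 1.79 FPKM, each lower with SNRNP40 siRNA like the parent gene.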

How the data were processed

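RNA of 4 libraries, 2 with control and 2 with SNRNP40 siRNA, was examined in the authors' deposited transcript table. Per the submitters' processing notes and the methods, the steps were cutadapt 1.2.1 for trimming, TopHat 2.0.8 against hg19, Cufflinks and cuffmerge for transcripts, and cuffdiff 2.0.2. The deposited FPKM are cuffdiff estimates per transcript, scaled by the authors for length and mapped fragments, with both libraries of a condition in 1 value. The table also holds the comparison made by the authors (fold changes, test statistics, p and q), which was not used. Depth is unknown.

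FPKM was summed per symbol and log2 ratios were taken without a pseudocount, for genes with a mean of at least 1. With 1 value per condition there was no test. Named were SNRNP40, in each subunit the 5 largest changes in each direction, the 5 highest and 3 lowest levels, the 5 largest transcript shifts, the MRPS18 genes, the structural groups, and in related lists the largest change each way, of which some are not reported here. Other genes just past a limit, MRPS36, and the neighbours and copies were named after their values were seen. The genes and lists were chosen with earlier results of these data known. Exons, neighbours, overlaps, pseudogenes and promoter letters were examined after the values were seen. Of 12 letter patterns searched, 6 are given, chosen after their shares were seen. The other 6 were longer forms of the ETS, YY1 and NRF1 patterns, at 16.5%, 15.3%, 11.8% and 1.18% of these promoters against 4.14%, 1.75%, 5.78% and 1.24% of all, the E-box at 10.6% against 7.26% and the CRE at 1.18% against 1.85%.

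Coordinates are GRCh37 (the same as hg19) from GENCODE release 44 and promoters are RefSeq's. Python 3.11.15, numpy 2.4.6, pandas 2.3.3 and matplotlib 3.10.9 were used, and the steps were tested on simulated data. Alternatives changed the pseudocount, the level filter, the scaling, the transcript used, the subunit assignment and the limit of change.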

Additional observations from a re-analysis of the deposited data

How the results depend on the processing

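Over all alternatives the median log2 fold change stayed between 0.06 and 0.11 for the 76 genes, between 0.07 and 0.11 for the large subunit and between 0.06 and 0.09 for the small subunit. The large-subunit median stayed higher, by 0.0037 to 0.031. No summed gene, and no most expressed transcript, of the 76 passed an absolute change of 1 in any of them. Leaving out genes with several listed transcripts, with a named pseudogene or with an overlapping coding gene were alternatives chosen after seeing the data. Scaling by the upper quartile moves all changes up by 0.02. Of 304 values for single genes under 4 alternatives, 291 moved by less than 0.1, and the other 13 all came from taking the most expressed transcript.

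The number of all genes past an absolute change of 1, 181 in the report, depended on the processing. It was 69 with a pseudocount of 1, 1870 without a filter on level, 27 at a mean of at least 10 FPKM, 454 with the most expressed transcript of each gene and 1270 at a limit of 0.5. With the most expressed transcript and a limit of 0.5 together, an alternative chosen after seeing the data, it was 1908, and 4 of the 76 genes passed where none of their sums did. The median absolute change in share of the leading transcript over the 24 genes was 5.49 points, and 6.46 points with transcripts of at least 1 FPKM only.

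No paired analysis was possible because each condition has 1 deposited value made from both libraries, which also kept replicates from being left out. The spread between libraries and between the siRNAs, and the depth behind each value, are unknown. The test statistics of the authors were not used. From the pooled FPKM alone, changes of the size seen here cannot be told from variation between libraries.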
